A study of Mus musculus with 6 samples.

Results

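The genes described here are 10 transcription factor genes of the AP-1 and immediate early class, measured in mouse HACA cells labelled as carrying a hairpin against Loxl2 or against Snail. They are Fos, Fosb, Fosl1 and Fosl2 of the FOS family, Jun, Junb and Jund of the JUN family, and Egr1, Atf3 and Klf2. They were chosen by name, with earlier results of these data known. Of them, 9 were found under their own symbol in the gene name column of the arrays' feature tables. Jund, listed there under the older symbol Jund1, was added through its RefSeq accession. Each has 1 probe, and all 10 passed the filter on dim probes, among 18589 gene names on 19752 tested probes.

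The groups are HACA cells with a Loxl2 hairpin (shLoxl2), with a Snail hairpin (shSnail) and, as the control, with a GFP hairpin (shGFP), whose target mouse cells lack. Short hairpin RNAs lower a chosen transcript. Loxl2 belongs to the lysyl oxidase genes, whose enzymes act on collagen, and Snail, from the gene Snai1, represses epithelial genes as a zinc-finger factor. Each 2-colour Agilent array set shLoxl2 or shSnail RNA, called test RNA below, against shGFP RNA. All groups, the controls included, carry a hairpin, and no untransduced cells were analysed here. The labels name neither the tissue the cells come from nor a clone, dose or time. Each of 2 shLoxl2 samples was hybridised in both dye orientations, which gave 4 arrays, and each of 2 shSnail samples was hybridised once, with the test RNA in Cy5. The series' design text speaks of 3 hybridisations per condition, and the groups here follow the title of each array. Each test group thus has n = 2. No label states that the samples are separate cultures, so the p-values measure a spread that may be technical.

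AP-1 is a dimer of basic leucine zipper (bZIP) proteins: a JUN protein pairs with a FOS protein, with another JUN protein or with some ATF proteins, and the dimer binds the sequence TGANTCA in promoters and enhancers. Many of these genes are immediate early genes, which growth factors and stress switch on within minutes through MAP kinases, without new protein synthesis. In epidermal and carcinoma cells AP-1 is known for driving matrix metalloproteinases and genes of keratinocyte differentiation. EGR1 and KLF2 are zinc-finger factors outside the bZIP family: EGR1 answers the same signals, and KLF2 is known from endothelial cells and resting lymphocytes.

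The promoters of 8 of the 10 genes were found in the RefSeq promoter table (assembly GRCm38.p6), and the 250 bases before the start of each were searched on both strands. Fosl1 and Egr1, the latter also called in shSnail libraries, had no entry in that table. Printed here are Junb, Fosl2 and Klf2, which changed in shSnail libraries, and Fosb. Of the 8, Fosb alone held the E-box CAGGTG, the sequence that Snail binds. Capitals mark, on either strand, TGACG (the core of the cAMP response element), CAGGTG, the GC box GGGCGG and the CACCC box CCACCC, the latter bound by KLF factors; each sequence runs 5′ to 3′ on the gene's strand and ends at the base before the start.
Junb, chr8:84978749-84978998, minus strand: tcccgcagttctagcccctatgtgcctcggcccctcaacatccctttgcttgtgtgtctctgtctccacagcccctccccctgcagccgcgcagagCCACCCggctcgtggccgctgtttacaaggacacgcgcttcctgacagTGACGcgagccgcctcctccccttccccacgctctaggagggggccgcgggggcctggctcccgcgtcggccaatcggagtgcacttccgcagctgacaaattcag
Fosl2, chr5:32136222-32136471, plus strand: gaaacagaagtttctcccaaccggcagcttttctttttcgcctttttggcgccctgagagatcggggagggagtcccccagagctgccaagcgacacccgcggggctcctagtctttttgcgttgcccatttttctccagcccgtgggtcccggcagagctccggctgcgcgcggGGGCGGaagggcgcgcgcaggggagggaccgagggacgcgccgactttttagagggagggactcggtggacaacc
Klf2, chr8:72318812-72319061, plus strand: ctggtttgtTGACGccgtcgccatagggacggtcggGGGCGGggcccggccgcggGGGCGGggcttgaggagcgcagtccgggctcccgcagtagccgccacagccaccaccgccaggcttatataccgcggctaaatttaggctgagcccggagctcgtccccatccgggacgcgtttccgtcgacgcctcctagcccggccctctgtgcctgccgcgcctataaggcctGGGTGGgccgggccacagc
Fosb, chr7:19310046-19310295, minus strand: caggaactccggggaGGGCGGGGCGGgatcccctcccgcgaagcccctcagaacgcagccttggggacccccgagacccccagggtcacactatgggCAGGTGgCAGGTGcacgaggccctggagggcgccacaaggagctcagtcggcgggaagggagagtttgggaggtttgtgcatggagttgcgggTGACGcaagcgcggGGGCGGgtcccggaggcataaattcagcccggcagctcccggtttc

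TGACG was found in 5 of the 8 promoters (Fos, Fosb, Junb, Atf3 and Klf2) and in 17.8% of all 32851 promoter windows in the table. CAGGTG was in 1 of 8, the Fosb promoter, at bases 153 to 148 and 146 to 141 before the start, and in 17.2% of all windows. GGGCGG was in 6 (Fos, Fosb, Fosl2, Jun, Atf3 and Klf2) and in 32.7% of all. CCACCC was in 4 (Jun, Junb, Atf3 and Klf2) and in 28.1%. In Klf2 it read as GGGTGG, on the other strand, at bases 19 to 14 before the start. TGANTCA, the full response element TGACGTCA (which contains TGACG) and the CArG box were in none of the 8 windows, against 6.75%, 1.55% and 1.47% of all. Such matches describe the letters of these windows and say nothing of binding.

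Between 55.9% and 74.9% of spots were well above background in the Cy3 channel and between 85.4% and 92.4% in Cy5. Dye bias was large on these arrays: after the sign was turned, the ratios of dye-swapped arrays correlated at 0.02 for sample 1 and at -0.03 for sample 2 across probes, whereas the averaged pairs of both samples correlated at 0.68. The 2 shSnail arrays correlated at 0.88. The Loxl2 probe, well above background in 7 of 12 channels, was not lower in the libraries labelled shLoxl2 (log2 fold change 0.11, SE 0.14, 95% interval -0.23 to 0.45, limma adjusted p = 0.64), which goes against the label. The Snai1 probe was well above background in 2 of 12 channels and does not check the shSnail label. The group names below are therefore those of the labels, and every direction is that of the libraries so labelled. Among marker genes, 6 of 10 epithelial, 1 of 8 fibroblast, 4 of 8 leukocyte and 0 of 6 endothelial markers were well above background in all 12 channels. Among leukocyte markers these were Cd3e, Cd68, Adgre1 and Csf1r, whereas Ptprc, the common leukocyte antigen, was above background in 1 channel. Among endothelial markers Cdh5 and Emcn were above it in 8 channels, Tie1 in 7, Kdr in 6, Pecam1 in 1 and Tek in 0. All shLoxl2 arrays were scanned on the same day and both shSnail arrays on a later day with another version of the extraction protocol, so these cannot be told apart from the group.

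In the libraries labelled shLoxl2, Klf2 and Jund rose against shGFP, and none of the 10 genes passed the test as lower in the main analysis. Klf2 rose 2.71-fold and Jund, the most steadily expressed JUN family member in many cell types, rose 1.71-fold, with its shLoxl2 channel saturated on 1 of the 4 arrays. Of all tested probes, 17.5% passed, 10% as higher and 7.50% as lower. The median log2 fold change of the 10 genes was 0.06, against -0.01 over all tested probes. The test was limma on log2 ratios of test over shGFP RNA, with the 2 dye orientations of a sample averaged, Benjamini-Hochberg adjustment over all tested probes and a threshold of 0.05. The dye effects of the pairs and the single shSnail arrays were in the same fit. The spread was therefore estimated over all of them, with no weights for averaged and single arrays. The ratio is tested against 0, so shGFP RNA has no spread of its own in the test, and any difference of it between arrays enters the spread of the ratios.

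Fos, the founding FOS gene and partner of the JUN proteins, had log2 ratios in shLoxl2 sample 1 of -2.02 with the test RNA in Cy3 and -1.67 in Cy5. In sample 2 they were -0.13 and -0.33. All 4 arrays were below 0, but the samples stood far apart, with averages of -1.84 and -0.23. The fitted change of -1.04 (SE 0.36, 95% interval -1.89 to -0.18) did not pass (adjusted p = 0.102). With only the shLoxl2 arrays in the fit, Fos passed as lower (limma adjusted p = 0.0315). With sample 1 alone Fos was at -1.84 and passed (adjusted p = 0.0200), on the assumption that a lone sample varies like the shSnail arrays. The test channel was well above background on 2 of 4 arrays, both with the test RNA in Cy5, and not on the array at -2.02. Fosl1, which encodes FRA-1, a FOS protein typical of invasive carcinoma cells, had ratios of -0.78 and -0.90 in sample 1 and -0.40 and 0.15 in sample 2, in Cy3 and Cy5 respectively. Its change was -0.48 (SE 0.26, adjusted p = 0.273).

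For Fosl2, which encodes FRA-2, the ratios were -0.61 and -0.24 in sample 1 and -0.30 and 0.74 in sample 2, so 3 arrays lay below 0 and 1 above. The fitted change was -0.10 (SE 0.25, adjusted p = 0.813). Fosb, whose protein also comes in a truncated form, split by dye and not by sample. Its ratios were -0.52 and -0.57 with the test RNA in Cy3, and 1.56 and 0.61 in Cy5. The shGFP channel behind the 1.56 was not well above background. Averaged over dyes the change was 0.27 (SE 0.16, adjusted p = 0.311). With the Cy3 arrays alone it was -0.54 and with the Cy5 arrays alone 1.08. Both were past the threshold (limma adjusted p = 0.0256 and 0.0206), as were 34.0% and 38.7% of all probes. The direction for Fosb thus follows the dye.

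In the JUN family, Jund was above 0 on all 4 shLoxl2 arrays. Its log2 ratios were 0.32 and 1.20 in sample 1 and 0.87 and 0.72 in sample 2, and the averages over dyes were 0.76 and 0.79. The array at 0.72 had its shLoxl2 channel saturated. The change was 0.78 (SE 0.15, adjusted p = 0.0135). Its call was lost under 5 of 15 alternatives, with adjusted p up to 0.111, while the value stayed between 0.59 and 0.96. Junb, a JUN protein that restrains growth in several cell types, was below 0 on all 4 arrays, at -0.32, -0.65, -0.24 and -0.36. Its change of -0.39 (SE 0.11, adjusted p = 0.0601) did not pass. Under 4 of 15 alternatives Junb passed as lower, with limma adjusted p down to 0.0332. The red channel of the Junb spot was saturated on all 4 of these arrays, which held shLoxl2 RNA on 2 and shGFP RNA on the other 2. Jun, which encodes c-JUN, had ratios of 0.08, -0.15, 0.58 and 0.41 and a change of 0.23 (SE 0.20, adjusted p = 0.478).

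Klf2 had the largest change of the 10 genes in shLoxl2 libraries. Its ratios were 1.78 and 1.49 in sample 1 and 1.11 and 1.38 in sample 2, with all 4 arrays above 1. The change was 1.44 (SE 0.13, 95% interval 1.13 to 1.75, adjusted p = 0.00104), the 155th highest of all tested probes. On the normalized log2 scale of each channel, shLoxl2 RNA gave 10.03 ± 0.35 and shGFP RNA 8.60 ± 0.33 (SD over 4 arrays of 2 samples). The lowest shLoxl2 level of Klf2 was 9.56 and the highest shGFP level on these arrays 8.91. How many of all probes were separated in this way was not counted.

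Egr1, a growth factor response gene, differed in direction between the samples, at 0.08 and -0.30 in sample 1 and 0.83 and 0.77 in sample 2. Its change was 0.35 (SE 0.25, adjusted p = 0.395). Atf3, a stress-induced bZIP repressor, again followed the dye, at -0.91 and -0.92 in Cy3 and -0.04 and 0.21 in Cy5. The averages over dyes were -0.47 and -0.35 and the change -0.41 (SE 0.15, adjusted p = 0.121). With the Cy3 arrays alone Atf3 passed as lower, while 34.0% of all probes passed. Its test channel was well above background on 2 of 4 arrays, both with the test RNA in Cy5. The call with the Cy3 arrays thus rests on test signals not well above background. 

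**Figure D1:**
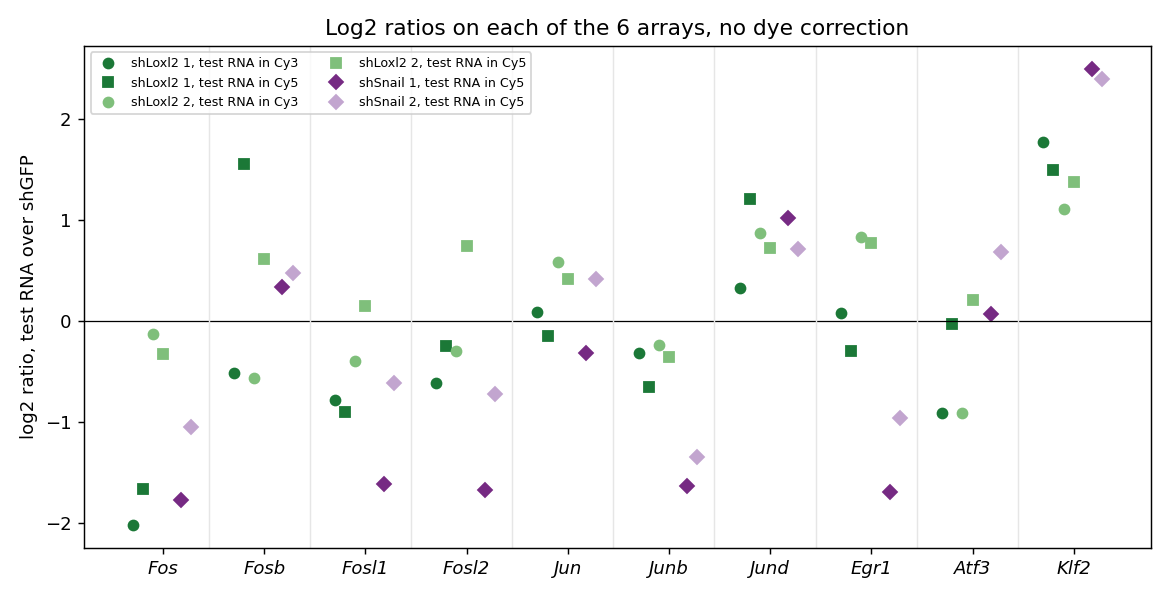
Log2 ratio of test over shGFP RNA (y axis) for each of the 10 genes (x axis) on the 6 arrays, with no dye correction; green marks are shLoxl2 arrays (circles with the test RNA in Cy3, squares in Cy5, dark for sample 1 and light for sample 2) and purple diamonds shSnail arrays. Klf2 lies above 1 on all 6 arrays and Junb below 0 on all 6, while Fosb separates by dye.

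In the libraries labelled shSnail, Klf2 rose 5.46-fold against shGFP, and Junb, Fosl2 and Egr1 fell to 0.383, 0.341 and 0.429 of the shGFP level. The other 6 genes did not pass. Of all tested probes 21.4% passed, 8.81% as higher and 12.6% as lower. The median log2 fold change of the 10 genes was -0.81, against -0.04 over all tested probes. The genes were chosen with earlier results of these data known, so their medians and counts in each comparison are no independent test. Both shSnail arrays carried the test RNA in Cy5, so the dye effect of each probe, estimated from the dye-swapped shLoxl2 arrays, was subtracted, and the values below are given after that step.

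Of the FOS family, Fosl2 was at -2.03 in shSnail sample 1 and -1.07 in sample 2. The fitted change was -1.55 (SE 0.35, 95% interval -2.40 to -0.71, adjusted p = 0.025). Fosl2 lost its call under 4 of 14 alternatives, with adjusted p up to 0.102. Fos was at -1.81 and -1.09 and Fosl1 at -1.73 and -0.72. Their changes of -1.45 (SE 0.51, adjusted p = 0.0882) and -1.22 (SE 0.37, adjusted p = 0.0602) did not pass, although both samples were below 0 for each. Fos RNA from shSnail libraries was well above background on 1 of 2 arrays. Fosb was at -0.48 and -0.34 (change -0.41, SE 0.23, adjusted p = 0.249).

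Junb was at -1.52 and -1.24 in the 2 shSnail samples. Its change was -1.38 (SE 0.16, 95% interval -1.77 to -0.999, adjusted p = 0.00313), and it passed under all 14 alternatives tried for this comparison. No channel of the shSnail arrays was saturated for Junb, where shSnail RNA gave log2 levels of 14.38 ± 0.02 and shGFP RNA 15.87 ± 0.22 (SD, n = 2). The dye effect subtracted came from the shLoxl2 arrays, on which the red channel of Junb was saturated; without that step the change was -1.49. Jund was at 0.84 and 0.53, after subtraction of a dye effect that also came in part from its saturated shLoxl2 spot, and its change of 0.68 (SE 0.21, 95% interval 0.19 to 1.18, adjusted p = 0.06) did not pass. Jun was at -0.21 and 0.52 and gave 0.15 (SE 0.28, adjusted p = 0.738).

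Klf2 was at 2.50 and 2.40, and its change of 2.45 (SE 0.19, 95% interval 2.01 to 2.89, adjusted p = 0.00127) was the 5th highest of all tested probes. Log2 levels of Klf2 were 11.03 ± 0.04 in shSnail RNA and 8.58 ± 0.04 in shGFP RNA (SD, n = 2). Egr1 fell, with -1.59 and -0.86 and a change of -1.22 (SE 0.35, 95% interval -2.05 to -0.39). Its adjusted p of 0.0498 lay at the threshold, and Egr1 lost its call under 7 of 14 alternatives, with adjusted p up to 0.230. Egr1 levels were 8.33 and 8.26 in shSnail RNA, both in Cy5, and 9.23 or above in shGFP RNA on all 6 arrays, in either dye. How many of all probes were separated in this way was not counted, so these levels add nothing to the call. Atf3, at -0.43 and 0.18, gave -0.12 (SE 0.21, adjusted p = 0.724).

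Several values depended on how the dye effect was treated. The effect was 0.81 for Fosb, 0.50 for Atf3, 0.35 for Fosl2 and 0.18 for Jund on the log2 scale, and between -0.11 and 0.11 for the other 6, with an SD of 0.46 over probes. Across probes, the slope of the shSnail ratios on it was 0.453. With the effect scaled by that slope, or with none subtracted, 7 of the 10 genes passed: Klf2 and Jund as higher, and Fos, Fosl1, Fosl2, Junb and Egr1 as lower. Of all tested probes, 23.2% passed with scaling (8.97% as higher, 14.2% as lower) and 31.5% with none subtracted (13.1% and 18.4%). Fos then had adjusted p = 0.0415 with scaling and 0.0374 with none, and Fosl1 0.0288 and 0.0285. Jund had 0.0141 and 0.00494. Fosb and Atf3 changed sign with both, to 0.04 and 0.15 with scaling and to 0.41 and 0.38 with none.

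**Figure D2:**
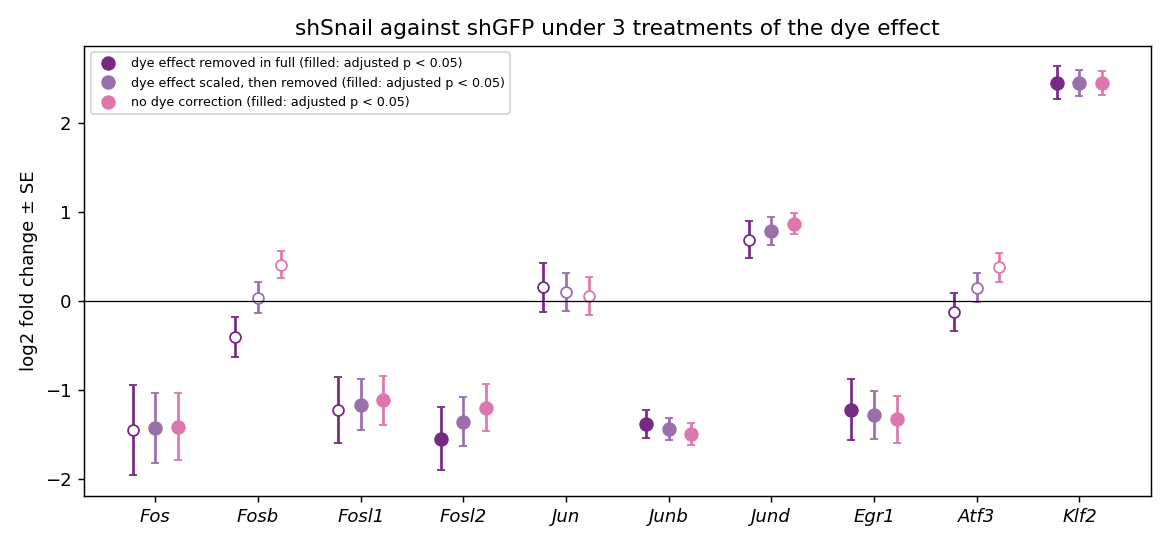
Fitted log2 fold change of shSnail against shGFP with its SE (y axis) for the 10 genes (x axis) after removal of the dye effect in full, after scaling of it and with none removed. Klf2 stays at 2.45 in all 3, whereas Fosb goes from -0.41 to 0.41.

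shSnail and shLoxl2 libraries were then compared directly over the 4 arrays that carried test RNA in Cy5. Their dye orientation is the same, but the dye effect need not be, given its slope of 0.453 on the shSnail arrays. Klf2 was 2.01-fold higher in shSnail than in shLoxl2 libraries, with a log2 difference of 1.01 (SE 0.16, 95% interval 0.61 to 1.41, adjusted p = 0.0235). Junb was 1.80-fold lower in mean channel levels. The shLoxl2 channel was saturated on both arrays, so its level there may be too low, and the spread between arrays is not counted in that value. The fit gave Junb -0.99 (SE 0.19, 95% interval -1.48 to -0.495, adjusted p = 0.0366). Of all tested probes 12.8% passed, 4.24% as higher and 8.56% as lower, and the median of the 10 genes was -0.55 against -0.04 for all.

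The other 8 genes did not pass in the direct comparison. Egr1 had the largest value, -1.57 (SE 0.43, 95% interval -2.65 to -0.48, adjusted p = 0.0729), and its Cy5 levels were 9.85 and 10.31 in shLoxl2 RNA against 8.33 and 8.26 in shSnail RNA. Fosl2 was at -1.45 (SE 0.45, adjusted p = 0.0962), Fosl1 at -0.74 (SE 0.47, 0.338), Fosb at -0.68 (SE 0.33, 0.225) and Fos at -0.42 (SE 0.49, 0.602). Jund was at -0.09 (SE 0.23, 95% interval -0.68 to 0.49), with 1 of the 2 shLoxl2 spots saturated, Jun at -0.08 (SE 0.32), and Atf3 at 0.29 (SE 0.25). With the dye effect scaled by that slope, 3 genes passed, with 14.8% of all probes. Egr1 was then lower at -1.63 (adjusted p = 0.0298), Fosb moved to -0.23 and Atf3 to 0.56, and neither of these passed. Both calls were lost without either shSnail sample, when 0 of the 10 genes passed by limma, with 3 and 5 genes at an unadjusted p under 0.05; the whole array then had 47 and 39 probes past the threshold. The values without a shSnail sample were 0.96 and 1.06 for Klf2 and -0.85 and -1.13 for Junb. Both calls were also lost with the scanner software's log ratios (0 of 10, and 3 at an unadjusted p under 0.05, while 11.9% of all probes passed), with Klf2 at 1.16 and Junb at -0.97. With the replicate number of the labels as a block, 5 genes passed, namely Klf2 as higher and Fosl1, Fosl2, Junb and Egr1 as lower, against 13.8% of all probes (4.42% as higher and 9.35% as lower).

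**Figure D3:**
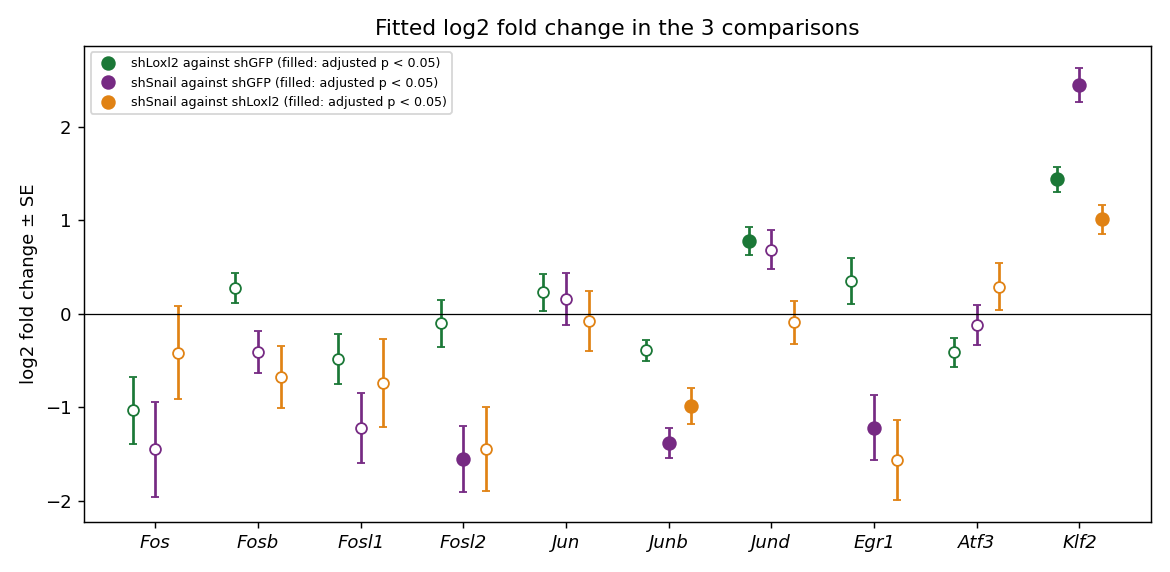
Fitted log2 fold change with its SE (y axis) for the 10 genes (x axis) in shLoxl2 against shGFP (green), shSnail against shGFP (purple) and shSnail against shLoxl2 (orange); filled points passed an adjusted p under 0.05. Klf2 is filled in all 3, and Junb in the last 2.

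Both comparisons are made against RNA labelled shGFP and share the estimated dye effect, so the values for each gene are set side by side and no overlap is drawn from them. Klf2 was at 1.44 and 2.45, Jund at 0.78 and 0.68, Junb at -0.39 and -1.38, and Egr1 at 0.35 and -1.22.

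The shGFP RNA itself varied in these genes between the arrays numbered 1 and those numbered 2. Across the 3 arrays of each number, shGFP log2 levels of Fos were 8.57, 8.79 and 8.33 against 7.62, 7.89 and 7.61. Egr1 was at 9.97, 10.15 and 10.03 against 9.25, 9.54 and 9.23, and Fosl1 at 10.75, 10.65 and 10.61 against 8.58, 9.66 and 9.38. In these 3 genes every array numbered 1 lay above every array numbered 2, by 0.86, 0.71 and 1.46 on average. Of all probes with a value in every channel, 8.86% showed no overlap by number, 4.44% with number 1 higher and 4.43% with it lower. The other 7 genes overlapped, with average differences from -0.26 in Jund to 0.93 in Fosl2. With the scanner software's signals the 3 genes were Fos, Fosl1 and Atf3, and 3.51% of all probes showed no overlap, 1.93% with number 1 higher.

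The spread between the shSnail samples of Fos, Fosl1, Fosl2, Jun and Egr1 stood mostly in the shGFP channel. On both arrays shGFP RNA was in Cy3 and shSnail RNA in Cy5, so RNA and dye cannot be told apart here. shSnail RNA differed between the 2 arrays by 0.00 in Fos, 0.22 in Fosl1, 0.06 in Fosl2, 0.08 in Jun and 0.07 in Egr1, on the log2 scale. On the same arrays shGFP RNA differed by 0.72, 1.23, 1.02, 0.81 and 0.80. Over the 10 genes the median absolute difference was 0.06 in the shSnail channel and 0.68 in the shGFP channel, and over all tested probes it was 0.10 and 0.20. Klf2 differed by 0.05 in the shSnail channel and by -0.05 in the shGFP channel. The labels do not say whether the arrays of a number share their shGFP RNA, and whether they do was not tested.

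**Figure D4:**
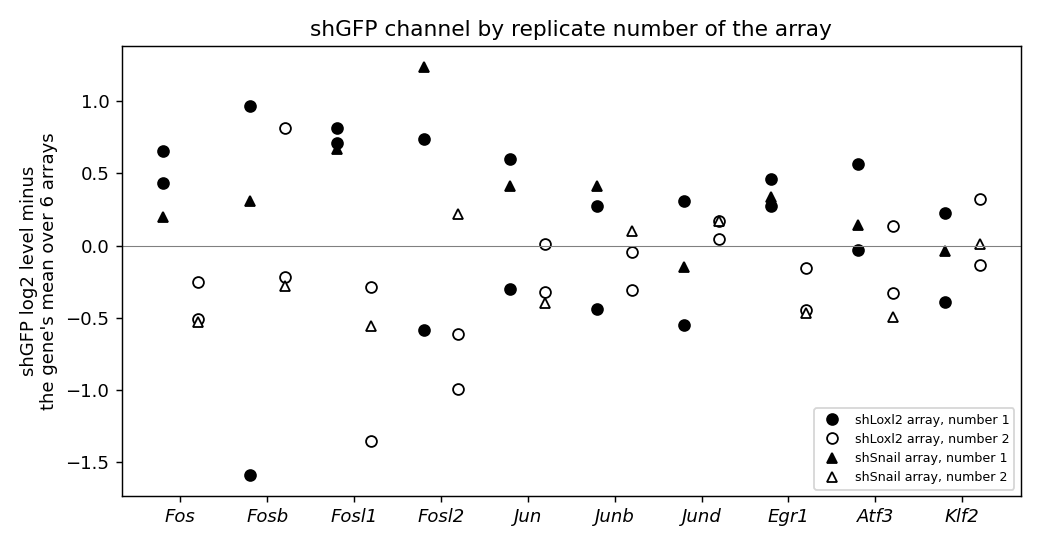
Log2 level of shGFP RNA on each array minus the gene's mean over the 6 arrays (y axis) for the 10 genes (x axis); filled marks are arrays numbered 1, open marks arrays numbered 2, circles shLoxl2 arrays and triangles shSnail arrays. For Fos, Fosl1 and Egr1 all filled marks lie above all open marks.

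**Figure D5:**
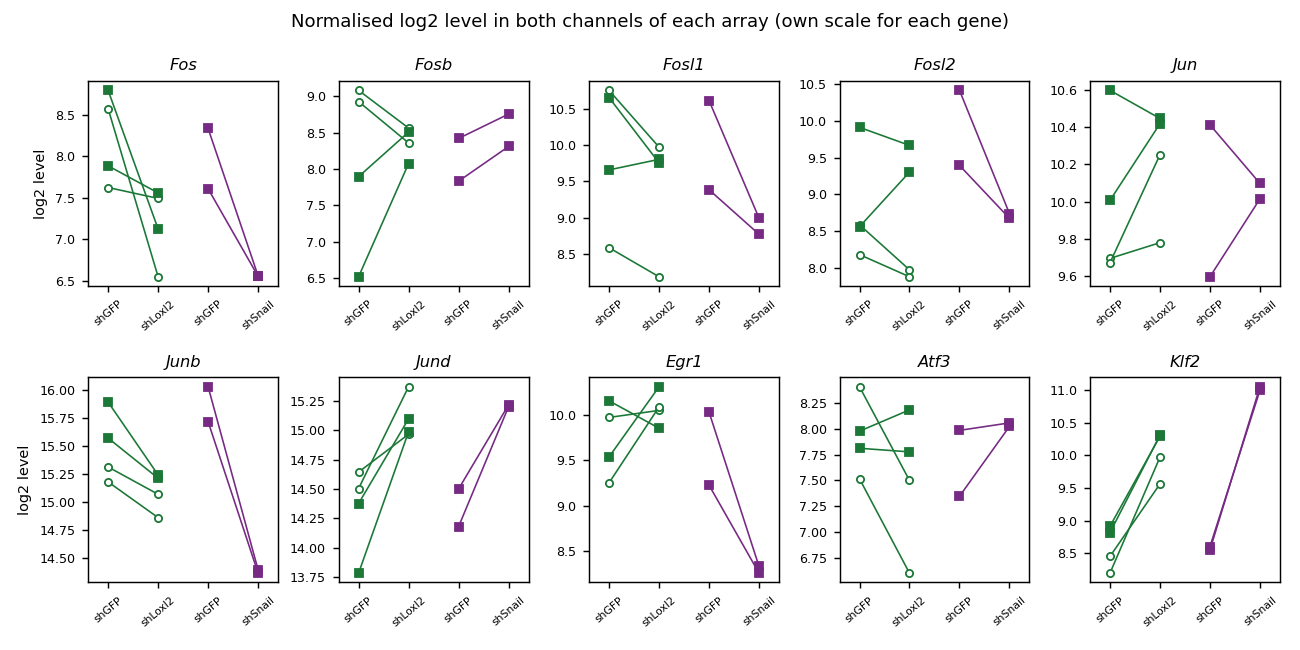
Normalized log2 level in the test and the shGFP channel of each array (y axis) for each gene (panels), with filled squares for arrays with the test RNA in Cy5 and open circles for those with it in Cy3. In the shSnail arrays the test levels of Fos lie together at 6.56 and the shGFP levels at 8.33 and 7.61.

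Other genes of the pathway were taken from 4 lists. Of all tested probes, 17.5% passed in shLoxl2 libraries, 21.4% in shSnail libraries and 12.8% in the direct comparison. The medians over all tested probes were -0.01, -0.04 and -0.04. Among 32 further immediate early regulators, 7 were higher and 1 lower in shLoxl2 libraries, with a list median of 0.18. Gadd45b, a stress-response gene of growth arrest, rose by 2.25 on the log2 scale (SE 0.17), Arc by 1.15 (SE 0.09) and Plk2, a polo-like kinase, by 1.04 (SE 0.12), while Gadd45a fell by 0.85 (SE 0.10). In shSnail libraries 3 of the 32 were higher and 5 lower, with a median of -0.15. Ccn1, a matricellular protein gene, rose by 1.80 (SE 0.30), Plk2 by 1.33 (SE 0.16) and the antiproliferative gene Btg2 by 1.27 (SE 0.20), and Gadd45a fell by 1.53 (SE 0.14). Between shSnail and shLoxl2, 2 were higher and 7 lower, with a median of -0.47. Those named by the rule were Btg2 at 1.64 (SE 0.18), Gadd45b at -1.55 (SE 0.24), Ier3 at -1.49 (SE 0.20) and Arc at -1.05 (SE 0.15).

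Of 23 bZIP genes whose proteins can pair with or compete with AP-1, 3 were higher and 4 lower in shLoxl2 libraries (median 0.03). The share of all tested probes that passed was 17.5% there, 21.4% in shSnail libraries and 12.8% in the direct comparison. Batf3, a JUN partner, rose by 1.78 (SE 0.10) and Maf by 1.71 (SE 0.17), whereas Ddit3, a factor of endoplasmic reticulum stress, fell by 0.94 (SE 0.11) and Atf6, of the same stress response, by 0.87 (SE 0.10). In shSnail libraries 0 were higher and 5 lower (median -0.10). Creb1, the factor of the cAMP response element, fell by 2.54 (SE 0.15) and Nfe2l2, of the antioxidant response, by 1.46 (SE 0.14). Atf1 fell by 0.76 (SE 0.13) and Ddit3 by 0.70 (SE 0.16). In the direct comparison 1 was higher, Atf6 at 1.11 (SE 0.15), and 5 were lower, among them Maf at -1.75 (SE 0.22), Creb1 at -1.70 (SE 0.17) and Batf3 at -1.35 (SE 0.15).

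Among 36 kinases and factors upstream of AP-1, 7 were higher and 6 lower in shLoxl2 libraries (median 0.07). In shSnail libraries 4 were higher and 9 lower (median -0.13). Of all tested probes 17.5% passed in shLoxl2 and 21.4% in shSnail libraries. Srf, the serum response factor that acts on the Fos promoter, rose in both, by 0.71 (SE 0.10) and 0.95 (SE 0.14). In shLoxl2 libraries Mapk13, a p38 kinase, rose by 1.15 (SE 0.15), Mapk7, which encodes ERK5, by 0.77 (SE 0.09), and Map2k1, which encodes MEK1, fell by 0.70 (SE 0.10). In shSnail libraries Nfkb1 (-1.50, SE 0.13), Nras (-1.17, SE 0.16) and Rps6ka5, which encodes the kinase MSK1 (-1.10, SE 0.15), fell. Between the test groups 2 were higher and 3 lower (median -0.22), while 12.8% of all tested probes passed. Elk4, which encodes a partner of the serum response factor, was among the higher ones at 0.80 (SE 0.18), and Mapk7 at -0.94 (SE 0.16) and Nfkb1 at -0.87 (SE 0.15) were among the lower ones.

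Of 38 genes reported as AP-1 targets, 36 were tested. The list was chosen with earlier results of these data known, so its counts and medians are no independent test of AP-1 targets. In shLoxl2 libraries 10 were higher, 14 lower and 12 did not pass, with a median of 0.02, while 17.5% of all probes passed. In shSnail libraries 2 were higher, 18 lower and 16 did not pass, while 21.4% of all probes passed, with a median of -0.87 against -0.04 over all tested probes. With the scanner software's log ratios that list had 2 higher and 15 lower and a median of -1.08, against -0.28 for all probes. Mmp13, which encodes collagenase 3, fell by 2.13 (SE 0.22) in shSnail libraries, and Mmp3, which encodes stromelysin 1, fell by 1.79 (SE 0.16) there but rose by 2.71 (SE 0.11) in shLoxl2 libraries. Hmox1, the heme oxygenase gene, rose by 1.66 (SE 0.15) in shSnail libraries, and Lor, which encodes the keratinocyte protein loricrin, rose by 2.07 (SE 0.10) in shLoxl2 libraries. Fst, the activin antagonist follistatin, fell in both (-2.77, SE 0.10, and -3.11, SE 0.14), and Sprr1b, of the cornified envelope, rose by 2.77 (SE 0.10) in shLoxl2 libraries. In the direct comparison 0 were higher and 13 lower (median -0.37), while 12.8% of all tested probes passed. The lower ones were led by Mmp3 at -4.49 (SE 0.18), Mmp13 at -3.66 (SE 0.20), Sprr1b at -3.00 (SE 0.17) and Sprr2a1 at -2.17 (SE 0.15). Genes named from these lists all had limma adjusted p under 0.05.

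The list counts moved with single samples, as did those of the whole array. All probes passing went from 21.4% to 8.03% in shSnail without shSnail sample 1, to 10.1% without sample 2, and to 15.5% and 16.0% without shLoxl2 sample 1 or 2. In shLoxl2 against shGFP they went from 17.5% to 8.85% without shLoxl2 sample 1. In the direct comparison they went from 12.8% to 0.238% and 0.197% without shSnail sample 1 or 2, and to 21.8% and 20.0% without shLoxl2 sample 1 or 2. Without shSnail sample 1 the shSnail counts were 1 higher and 11 lower among the AP-1 targets, 3 and 1 among the immediate early regulators, 0 and 3 among the bZIP genes and 3 and 3 among the upstream genes. Without shSnail sample 2 the immediate early regulators had 3 higher and 2 lower and the upstream genes 1 and 4. In the direct comparison, without either shSnail sample, 3 and 4 AP-1 targets passed, all lower. In the other 3 lists 0 genes passed by limma, with 11 and 16 immediate early regulators, 9 and 10 bZIP genes and 8 and 5 upstream genes at an unadjusted p under 0.05. Without shLoxl2 sample 1 the upstream genes had 4 higher and 2 lower in shLoxl2 libraries and 4 and 4 in shSnail libraries, and the bZIP genes 0 and 3 in shSnail libraries and 1 and 10 in the direct comparison. Without shLoxl2 sample 2 the bZIP genes had 0 and 3 in shSnail libraries, and the upstream genes 2 and 6 in the direct comparison. With no dye effect subtracted, the immediate early regulators had 6 higher and 9 lower in shSnail libraries. Of all tested probes 31.5% then passed, 13.1% as higher and 18.4% as lower.

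Markers of other cell types were followed beside these changes. For comparison, 17.5% of all tested probes passed in shLoxl2 libraries and 21.4% in shSnail libraries. In shLoxl2 libraries 2 of 10 epithelial markers were higher and 2 lower, among them Epcam at 1.51 (SE 0.09) and Trp63 at -1.15 (SE 0.10). In shSnail libraries 1 was higher and 4 lower, among them Dsp, a desmosome gene, at -1.83 (SE 0.15) and Trp63 at -1.71 (SE 0.15). Of 8 fibroblast markers, Pdgfra was lower in both (-0.82, SE 0.11, and -1.18, SE 0.16), and Thy1 was higher in shSnail libraries (0.57, SE 0.16). Of 7 tested leukocyte markers Cd68 was higher in shLoxl2 libraries (0.66, SE 0.10) and 0 passed in shSnail libraries, where 1 had an unadjusted limma p under 0.05. Of the 4 endothelial markers tested 0 passed in either, and 0 had an unadjusted p under 0.05. Endothelial and lymphoid cells are where Klf2 is best known, and their part in its rise was not tested.

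The genes whose 4 values (the averaged pairs of shLoxl2 and the shSnail arrays after removal of the dye effect) lay nearest to those of a changed member were also found, by Euclidean distance on the log2 scale. For Klf2 they were Mrpl34 (0.428) and Il11ra1 (0.510), and for Junb Cep110 (0.146) and Psmc6 (0.195). Jund lay nearest to Gpnmb (0.150) and Rbm4 (0.186), Fosl2 to Wwtr1 (0.281) and Sox4 (0.333), and Egr1 to Stk4 (0.238) and Spop (0.268).

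Each probe's position is given in the mouse build mm8, as the arrays' feature tables list it. Klf2 (chr8:75250227-75250286), Jund (chr8:73629526-73629585) and Junb (chr8:87867087-87867146) lie on chromosome 8. Fos was measured at chr12:86364759-86364935, a listed span of 177 bases, against 60 for the others. The other probes were at chr7:18461650-18461709 (Fosb), chr19:5455496-5455555 (Fosl1), chr5:32429296-32429355 (Fosl2), chr4:94541191-94541250 (Jun), chr18:34990715-34990774 (Egr1) and chr1:192877910-192877969 (Atf3). Exon and UTR positions in that build were not analysed here.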

How the data were processed

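The labels name a linear amplification kit and the dye of each channel. The deposited spot intensity values, local backgrounds and log10 ratios of Cy5 over Cy3 come from Agilent's Feature Extraction software. Its version is 9.5.1.1 in the file headers and 6.1.1 per the submitters' processing notes. The authors' table of values holds the same log10 ratios. The columns matched their own arrays within 0.006 at 100% of spots, except that of shSnail sample 2, which repeats sample 1 (9.37% of spots matched), so it served only as an alternative for shLoxl2 against shGFP.

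Mean intensities were corrected by normexp (offset 50) and normalized by loess in limma 3.58.1 (R 4.3.3, data.table version 1.17.8), where the 736 control spots and any outlier spot had weight 0. Averaging of the 21318 probe spots gave 20868 probes. Those well above background in 1 channel or more, on 2 arrays or more (19752 probes), were tested, and 14711 probes were named through RefSeq accessions. Channel levels were made comparable across arrays by Aquantile and are not compared between probes. The number of arrays limits the precision.

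Dye-swapped shLoxl2 arrays were averaged with the sign turned. Those averages, their dye effects and the shSnail arrays were fitted together with lmFit and eBayes. shSnail against shLoxl2 used the 4 Cy5 arrays. Adjusted p-values are Benjamini-Hochberg over all tested probes. Text values of shSnail samples are after removal of the dye effect. The fits were also run on simulated data in which every array carried the full dye effect. That run cannot check the full subtraction on the shSnail arrays, where the slope on the dye effect was 0.453.

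The 10 genes and the lists were chosen with earlier results of these data known. Genes named from a list are up to 4 (markers, 2) per comparison by smallest p among those that passed (1 such gene is not reported here), and the 2 nearest genes are given for each of the 10 genes that passed against shGFP. The number of the labels was checked as a pairing: between the Cy5 arrays, differences of sample 1 from sample 2 in shLoxl2 and shSnail correlated at 0.21 across probes, over 2 pairs only. Alternatives covered background correction, scanner ratios, filters, probe averaging, the arrays fitted, the dye term and each sample left out. The look at the shGFP channel by number was added after the data were seen.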

Additional observations from a re-analysis of the deposited data

How the results depend on the processing

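Of all tested probes, 17.5% passed in shLoxl2 against shGFP, 21.4% in shSnail against shGFP and 12.8% in shSnail against shLoxl2. The number of members passing was 2, 4 and 2 in these comparisons, in that order. For shLoxl2 it became 1 with the scanner software's log ratios, as deposited or centred (12.4% and 12.3% of all probes passing), and with the value table (3.89%), and 4 with the Cy5 arrays alone (38.7%), and it ran from 1 to 3 when each sample was left out. For shSnail it was 7 both without dye correction and with a scaled dye effect (31.5% and 23.2% of all probes), and ran from 2 to 4 without single samples. In the direct comparison limma called 0 with the scanner's log ratios, centred or not (3 at an unadjusted p under 0.05; 9.45% and 11.9% of all probes passing), and 0 to 4 without single samples. With the replicate block it called 5, while 13.8% of all probes passed, with the numbers 1 and 2 not shown to pair the samples. Without single samples the share of all probes passing moved too, as given above. Klf2 passed under every alternative run in both comparisons with shGFP (log2 0.88 to 1.93 and 1.79 to 3.24), as did Junb in shSnail (-1.52 to -1.15). Signs turned only for values that did not pass in the main analysis. In shLoxl2 these were Fosl2 at 0.25 and Atf3 at 0.0859 with Cy5 alone and Fosb at -0.54 with Cy3 alone. In shSnail they were Atf3 at 0.0616 without background subtraction, 0.38 uncorrected for dye and 0.15 with scaling, and Fosb at 0.41 uncorrected and 0.0373 with scaling. In the direct comparison they were Jund at 0.0394 without background subtraction, 0.0806 with centred scanner ratios and 0.00725 with scaling, and Jun at 0.0873 with centred scanner ratios. Leaving out single samples moved Fosl2 from -0.43 to 0.22, Jun from -0.0331 to 0.50 and Egr1 from -0.11 to 0.80 in shLoxl2, Atf3 from -0.43 to 0.18 and Jun from -0.21 to 0.52 in shSnail, and Jund from -0.33 to 0.15, Jun from -0.44 to 0.29, Fos from -1.09 to 0.25 and Atf3 from -0.0133 to 0.59 in the direct comparison; the cause was not tested. The scanner's log ratios moved the median of all probes to -0.28 in shSnail against shGFP (-0.10 centred) and -0.28 in the direct comparison (-0.13 centred). Slide and scan could not be fitted as a block, since each slide held 1 array and each scan day 1 group, and in the direct comparison a fit with only its own samples is the main one. Filtering for both channels above background on 4 arrays left 9 of the 10 genes.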
